A study of Mus musculus with 6 samples.

Results

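The genes of oxidative phosphorylation were followed in 2 populations of innate lymphoid cells sorted from mouse lung. They were taken by name as every protein-coding row whose mouse symbol starts with Nduf, Uqcr, Atp5, Cox4, Cox5, Cox6, Cox7, Cox8, mt-Nd, mt-Co, mt-Cytb or mt-Atp, together with Sdha, Sdhb, Sdhc and Sdhd. This gave 106 of the 52636 genes counted, 93 in the nuclear and 13 in the mitochondrial genome, so that every protein encoded by mitochondrial DNA was included. A further 13 rows with the same prefixes were left out as not protein-coding, 12 of them processed pseudogenes. Innate lymphoid cells are lymphocytes without rearranged antigen receptors, and the group 2 subset (ILC2) answers the alarmin interleukin-33 by making type 2 cytokines.

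All libraries came from wild-type C57BL/6 mice that carried the 4get allele, a GFP (green fluorescent protein) reporter for Il4. Every mouse had received 500 ng of recombinant interleukin-33 intraperitoneally for 4 days and was killed on day 5, so neither group is untreated. The groups were lineage-negative, CD90-positive lung cells without KLRG1 (KLRG1-negative, 3 libraries) and with it (KLRG1-positive, called KLRG1-high in the sort protocol, 3 libraries). KLRG1 is a lectin-like receptor carried by activated ILC2. The labels give no age, and they do not tell whether libraries of 1 group stem from different animals. The p-values therefore reflect the spread among these 6 libraries alone, which could be technical.

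In oxidative phosphorylation, complex I (NADH dehydrogenase) and complex II (succinate dehydrogenase) pass electrons to ubiquinone, complex III passes them to cytochrome c and complex IV passes them to oxygen. Complexes I, III and IV pump protons out of the matrix, and complex V (ATP synthase) makes ATP as they return. All complexes except II are built from subunits of both genomes: the mitochondrial DNA encodes core membrane subunits, transcribed as long polycistronic RNAs, and the nucleus encodes the rest. In lymphocytes, activation and cytokine production are accompanied by changes in mitochondrial respiration.

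Assigned counts ran from 17323004 to 23946073 per library. All 9 genes of an ILC2 list (Gata3, Rora, Il1rl1, Il7r, Il5, Il13, Arg1, Areg and Klrg1) were detected in both groups. Their summed level was 1359 to 3446 CPM (read counts scaled to a common effective library size) in KLRG1-negative and 6975 to 8900 CPM in KLRG1-positive libraries. The sum includes Klrg1, on which the cells were sorted, at 13.1, 192.7 and 73.2 against 1485, 1786 and 1327 CPM. Of the 9 genes 0 were called, and 7 were apart and higher, beside 9.46% of all genes. Il7r and Areg overlapped between the groups. The KLRG1-negative libraries also carried markers of other cells. The 5 fibroblast markers (Col1a1, Col1a2, Col3a1, Dcn and Lum) summed to 3796 to 10658 CPM there and to 4.66 to 23.4 CPM in KLRG1-positive libraries, and all 5 were called lower in the latter. The 7 T cell markers summed to 1009 to 4002 against 307.0 to 364.0 CPM, with 1 of the 6 tested called lower (Cd28) and Cd4 at 0 in 4 libraries, and the 5 B cell markers to 504.5 to 4025 against 118.7 to 343.2 CPM, with none called. Summed levels of macrophage and neutrophil, epithelial and endothelial markers overlapped between the groups. The epithelial sum was 424.8, 75.8 and 63.3 CPM against 372.6, 8.71 and 9.46 CPM. Most of it in the libraries numbered 1 was Sftpc, at 366.4 and 329.8 CPM. Of the 4 epithelial markers, Scgb1a1 and Krt8 were lower in KLRG1-positive libraries without overlap, while Epcam and Sftpc overlapped. The 4 muscle markers reached at most 2.26 CPM with Myh6 at 0. The part of these other cells in the differences below was not tested. In bulk RNA, fewer cells of a type and less RNA per cell cannot be told apart.

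Reads could be assigned to only some mitochondrial genes, which limits what the 13 can show. The stretch around them has a copy in the nucleus: on chromosome 1 (GRCm38, 24611535 to 24616197) 7 unprocessed pseudogenes follow the mitochondrial order, and reads that map to more than 1 place were not counted by the authors. The first 60 bases of mt-Co3, which encodes a core subunit of complex IV, are printed with those of its nuclear copy Gm28437 because the pair shows the problem, and with those of mt-Cytb, the mitochondrial subunit of complex III, because no 50-base stretch of it lies in another annotated gene. The positions are mitochondrial bases 8607 to 8666 (plus strand), chromosome 1 bases 24613912 to 24613971 (minus strand) and mitochondrial bases 14145 to 14204 (plus strand), all in GRCm38 and read 5′ to 3′.
mt-Co3: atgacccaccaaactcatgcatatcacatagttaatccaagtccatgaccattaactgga
Gm28437: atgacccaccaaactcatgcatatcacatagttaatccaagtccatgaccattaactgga
mt-Cytb: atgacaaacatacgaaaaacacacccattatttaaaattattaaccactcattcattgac
mt-Co3 and Gm28437 did not differ at any of the 783 bases compared. Over all 6 libraries mt-Co3 received 36 counts and mt-Cytb 226476.

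The other mitochondrial genes divided the same way. For mt-Co2, mt-Co3, mt-Atp6, mt-Nd4l and mt-Nd3, 98.0 to 100% of 50-base stretches were also found in a transcript of another gene, and none of these 5 exceeded 17 counts in any library. mt-Nd4l had 0 counts in all 6, which allows up to 3 counts per library and says nothing of reads that map to its copy as well. mt-Atp8, which overlaps mt-Atp6, had 4 counts in all although it shared no stretch with an annotated transcript, and its low count was not tested further. The 7 nuclear copies together received 35 counts. The 7 genes with at least 1000 counts in every library were mt-Nd1, mt-Nd2, mt-Nd4, mt-Nd5, mt-Nd6, mt-Cytb and mt-Co1, of which mt-Nd4 was shared over 62.2% and mt-Co1 over 51.1% of stretches. Complex V had no countable mitochondrial gene, and complex IV only mt-Co1. mt-Nd6 lies on the opposite strand and its end overlaps mt-Nd5, and with counting that ignores strand their overlap cannot be assigned to either. For the same reason the whole mt-Nd6 count can include RNA of the other strand, which was not tested.

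**Figure D1:**
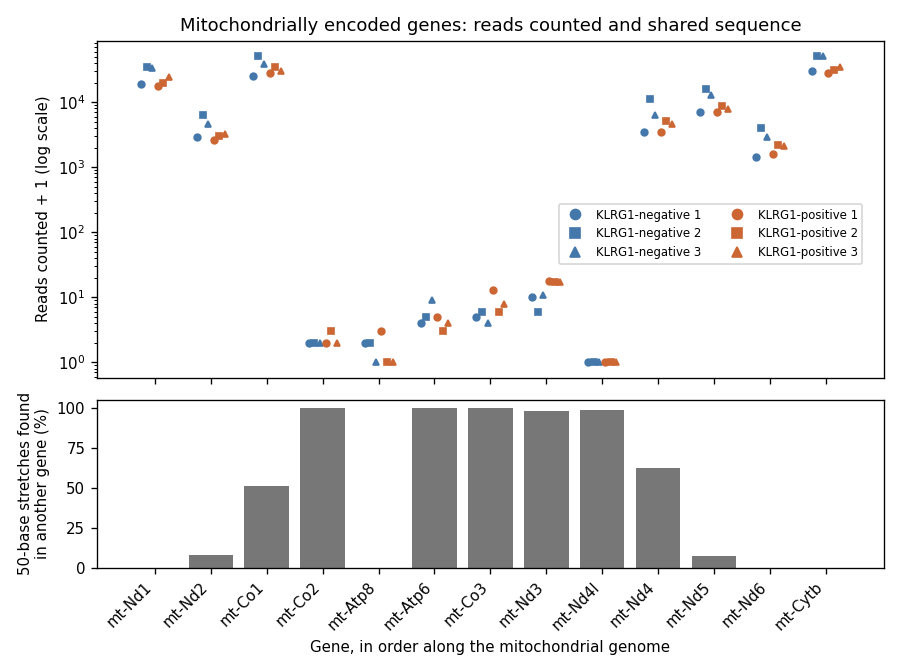
The upper panel plots reads counted plus 1 (log scale) for the 13 mitochondrially encoded genes, ordered along the mitochondrial genome, with 1 point per library. The lower panel gives the percent of each gene's 50-base stretches also found in another gene; the 5 genes at 98.0 to 100% sit at 17 counts or fewer, as does mt-Atp8, while 7 genes stay above 1000 counts in every library.

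Among the 7 countable genes, levels per kilobase of gene differed widely. Averaged over the 6 libraries, mt-Cytb stood at 1595 CPM per kilobase, mt-Nd1 at 1247 and mt-Co1 at 1083. Those of mt-Nd5 (262.2), mt-Nd6 (217.3), mt-Nd4 (194.8) and mt-Nd2 (174.0 CPM per kilobase) were several times lower. For mt-Co1 and mt-Nd4 these are understated: divided by unshared length only, they were 2290 and 534.8 CPM per kilobase.

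All 7 countable mitochondrial genes had a negative log2 fold change (KLRG1-positive over KLRG1-negative), and none was called. mt-Nd2, a membrane subunit of complex I, stood at 162.7, 246.6 and 225.5 CPM in KLRG1-negative and at 146.5, 159.3 and 143.2 CPM in KLRG1-positive libraries. Every KLRG1-positive library lay below every KLRG1-negative one. The log2 fold change of mt-Nd2 was -0.50 ± 0.20 (SE, n = 3 per group), with an unadjusted p of 0.048 and an adjusted p of 0.310 from edgeR's quasi-likelihood test.

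mt-Cytb was at 1688, 2011 and 2473 CPM in KLRG1-negative and at 1608, 1645 and 1523 CPM in KLRG1-positive libraries. These groups did not overlap either, with a log2 fold change of -0.37 ± 0.19 and an edgeR adjusted p of 0.429. mt-Co1, the catalytic subunit of complex IV, was at 1424, 2017 and 1861 CPM against 1567, 1857 and 1317 CPM, so the groups overlapped (log2 fold change -0.16 ± 0.21, edgeR adjusted p = 0.818). The complex I genes mt-Nd1 (-0.35), mt-Nd4 (-0.49), mt-Nd5 (-0.45) and mt-Nd6 (-0.31) overlapped too, because KLRG1-negative library 1 was low for each of them. mt-Nd3 was the exception in sign at 1.09 ± 0.71 on the log2 scale, on at most 17 counts per library.

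Over the 8 mitochondrial genes that passed the low-count filter, the median log2 fold change was -0.36, beside -0.05 over all 15197 genes tested, and 2 of 8 were non-overlapping and lower, beside 15.2% of all genes. An unadjusted p under 0.05 in the lower direction was reached by 1 of the 8, beside 11.5% of all genes. The median rested in part on single libraries. Without KLRG1-negative library 2 it was -0.12 and mt-Co1 stood at 0.06, without KLRG1-negative library 3 it was -0.21, and without KLRG1-positive library 3 it was -0.22 and mt-Co1 stood at 0.08.

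The nuclear genes lay mostly on the other side. Of the 93, 87 passed the filter, and 76 of these had a positive log2 fold change. The share was 46.5% of all genes tested and 52.4% of those with a mean of at least 10 CPM. The median of the 87 was 0.35. In 38 of the 87 every KLRG1-positive library exceeded every KLRG1-negative one, and in none was it the reverse. Among all genes tested, 9.46% were non-overlapping and higher, and 11.3% of the 9528 with a mean of at least 10 CPM. The median over those more abundant genes was 0.03. Compared within same-numbered pairs, 58 of the 87 were higher in the KLRG1-positive library of all 3 pairs, beside 21.7% of all genes, and 2 were lower in all 3.

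No nuclear or mitochondrial member passed an adjusted p of 0.05 in edgeR's test, in which 0.125% of all genes were called higher and 1.21% lower. Unadjusted, 14 nuclear members had p under 0.05 and were higher, beside 4.19% of all genes. With the replicate number as a block 22 were, beside 6.74% of all genes in that fit. DESeq2's Wald test called 4 members higher, Sdhb, Ndufb5, Cox4i1 and Ndufb9, beside 2.29% of all genes, and 2 of 95, Sdhb and Ndufb8, when it carried the replicate block, beside 4.01% of all genes. The members share libraries and are not independent of each other. A p that misses the threshold does not show that levels were equal.

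**Figure D2:**
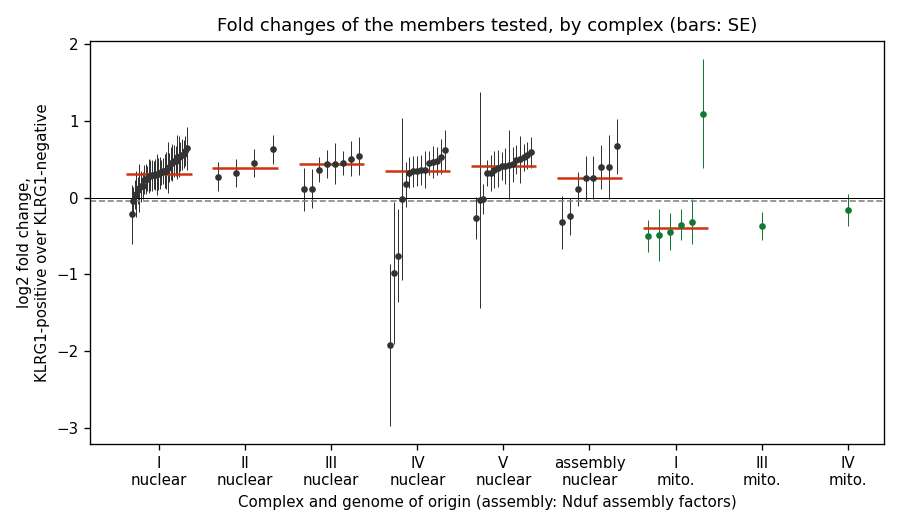
Each point is the log2 fold change (KLRG1-positive over KLRG1-negative, n = 3 per group) of 1 member tested, with its SE, sorted within its complex and genome of origin; the red bar is the median of each set of more than 1 gene and the dashed line the median of all genes (-0.05). Nuclear medians of complexes I to V lie between 0.31 and 0.44, and the 7 countable mitochondrial genes lie below 0.

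The nuclear medians of the complexes lay close together. The median log2 fold change of nuclear members was 0.31 for complex I (34 of 36 positive), 0.38 for complex II (4 of 4) and 0.44 for complex III (8 of 8). It was 0.34 for complex IV (11 of 15 tested) and 0.41 for complex V (13 of 16 tested). Genes were placed in a complex by symbol, without a check that each product is a structural subunit. Complex V thus counts Atp5s, which RefSeq names Dmac2l, at -0.27 ± 0.27 on the log2 scale. Complex IV likewise counts Cox7a2l, at 0.17 ± 0.29. The 8 Nduf assembly factors, which build complex I without remaining in it, had a median of 0.25 with 6 of 8 positive. In none of these 8 were the groups separate, beside 9.46% of all genes apart and higher and 15.2% apart and lower. With only 8 genes, this does not set them apart from all genes. Whether the complexes differed from one another was not tested.

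The KLRG1-positive libraries had the same order in each of complexes I to V, and the KLRG1-negative ones did not. On the log2 scale, taking each gene's deviation from its own mean over the 6 libraries, the median nuclear member stood at -0.28, -0.15 and -0.10 in KLRG1-negative libraries 1, 2 and 3 and at 0.18, -0.02 and 0.36 in KLRG1-positive libraries 1, 2 and 3. KLRG1-positive library 2 was thus the lowest of its group and close to the highest KLRG1-negative one. Its median was also the lowest KLRG1-positive one in each of complexes I to V. Leaving it out gave a nuclear median log2 fold change of 0.45, and leaving out KLRG1-negative library 2 gave 0.46.

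**Figure D3:**
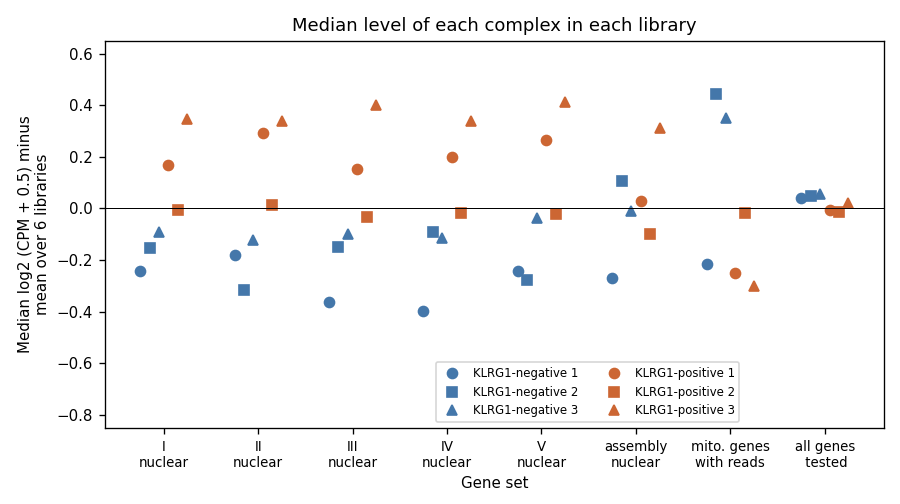
For each gene set, the points give the median over its genes of log2 (CPM + 0.5) minus the gene's mean over the 6 libraries, 1 point per library. In complexes I to V all 3 KLRG1-positive libraries lie above all 3 KLRG1-negative ones, with KLRG1-positive library 2 nearest to 0, whereas the assembly factors and the 7 countable mitochondrial genes overlap.

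Complex II, which also serves the citrate cycle and has no mitochondrial subunit, held the member with the smallest p. Sdhb (ENSMUSG00000009863, GRCm38 chromosome 4, 140961203 to 140979193, plus strand), the iron-sulfur subunit, was at 215.6, 270.7 and 276.0 CPM in KLRG1-negative and at 391.0, 342.2 and 443.0 CPM in KLRG1-positive libraries. The groups were apart, at 254.1 ± 33.5 against 392.1 ± 50.4 CPM (SD, n = 3 each). The log2 fold change of Sdhb was 0.63 ± 0.19 (SE), with an adjusted p of 0.165 in edgeR and 0.0253 in DESeq2.

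Sdhd, a membrane anchor of complex II, was at 210.0, 180.1 and 230.9 CPM against 291.2, 244.8 and 309.3 CPM, without overlap (log2 fold change 0.44 ± 0.18, edgeR adjusted p = 0.305). Sdhc, the other anchor, was also without overlap at 74.5, 79.1 and 71.6 CPM against 96.0, 81.9 and 104.1 CPM. Sdha, the flavoprotein that oxidises succinate, overlapped at 778.7, 555.4 and 716.1 CPM against 923.1, 745.9 and 807.1 CPM, and was higher in each pair. Per kilobase, Sdhd (198.5 CPM) and Sdha (182.8 CPM) were the highest of the 4.

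In complex I, Ndufb5 and Ndufb9, accessory subunits of the membrane arm, had the smallest p. Ndufb5 (chromosome 3, 32736990 to 32751566) was at 64.4, 52.1 and 58.6 CPM in KLRG1-negative and at 93.8, 79.4 and 93.4 CPM in KLRG1-positive libraries. The log2 fold change of Ndufb5 was 0.61 ± 0.19, with an adjusted p of 0.187 in edgeR and 0.0297 in DESeq2. Ndufb9 (chromosome 15, 58933810 to 58939489) was at 95.6, 114.5 and 100.2 CPM against 155.2, 131.4 and 173.3 CPM (0.57 ± 0.19, edgeR adjusted p = 0.203).

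Both pairs of groups were apart, as they were in 18 of the 36 nuclear genes of complex I. Of all genes tested, 9.46% were apart and higher. Per kilobase, Ndufa1 (226.0 CPM), an accessory subunit encoded on the X chromosome, and Ndufb9 (197.2 CPM) were the highest of the nuclear genes of the complex. Ndufa1 was at 72.9, 84.3 and 74.5 CPM against 105.6, 101.0 and 130.0 CPM, again without overlap. Ndufs3, a core subunit of the matrix arm, was nearly level at 39.8 to 40.9 against 40.7 to 41.9 CPM. Of the nuclear genes of complex I, Ndufb4 and Ndufs7 alone had negative values, at -0.22 ± 0.39 and -0.04 ± 0.18 on the log2 scale.

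In complex III all 8 nuclear members were positive, and 5 were without overlap, beside 9.46% of all genes apart and higher. Cyc1, which encodes cytochrome c1 of this complex, is not taken by the name rule. It overlapped, with a log2 fold change of 0.20 ± 0.23. Uqcrc1 (chromosome 9, 108936633 to 108949623), a core protein of the matrix side, was at 473.6, 574.9 and 516.9 CPM in KLRG1-negative and at 676.7, 684.8 and 773.2 CPM in KLRG1-positive libraries. The log2 fold change of Uqcrc1 was 0.45 ± 0.16 (SE, n = 3 per group; edgeR adjusted p = 0.240). Its partner Uqcrc2 was at 144.6, 153.4 and 167.3 CPM against 233.6, 174.3 and 219.8 CPM. Uqcrfs1, the Rieske iron-sulfur protein that hands electrons to cytochrome c1, overlapped at 104.6, 152.3 and 138.1 CPM against 126.6, 116.2 and 184.6 CPM. The mitochondrial partner of Uqcrc1, Uqcrc2 and Uqcrfs1, mt-Cytb, was without overlap in the opposite direction, as given above.

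In complex IV, Cox4i1 (chromosome 8) and Cox6a1 had the smallest p. Cox4i1 was at 207.8, 244.8 and 252.8 CPM against 314.5, 309.7 and 336.0 CPM, without overlap (0.44 ± 0.16 on the log2 scale, adjusted p = 0.239 in edgeR and 0.0480 in DESeq2). Cox6a1 was at 154.9, 183.4 and 191.3 CPM against 243.9, 208.4 and 283.6 CPM, also without overlap, with a log2 fold change of 0.47 ± 0.19. Cox6a1 had the highest level per kilobase of the nuclear genes of this complex, at 300.5 CPM, followed by Cox6b1 at 206.9 CPM.

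The 4 negative values of complex IV came from genes of low level or uneven libraries. Cox6a2 was at 1.06, 1.42 and 3.65 against 0.338, 0.107 and 1.15 CPM, Cox6b2 at 0.556, 5.40 and 2.31 against 0.788, 1.60 and 1.78 CPM, and Cox7a1 at 0.501, 2.44 and 0.240 against 1.58, 0.427 and 1.15 CPM. All 3 overlapped, and for Cox7a1 the sign turned with the setting. Cox7c was at 7.06, 25.4 and 7.93 against 5.86, 9.13 and 8.88 CPM, with KLRG1-negative library 2 far above the rest. Of its 50-base stretches 22.1% occur in other annotated genes.

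In complex V the beta and alpha subunits were the most abundant nuclear members per kilobase. Atp5b, the beta subunit that holds the catalytic sites (chromosome 10), averaged 394.4 CPM per kilobase. It stood at 1544, 1184 and 1733 CPM against 1997, 1426 and 2142 CPM, with overlap between groups but higher in each same-numbered pair. In edgeR its unadjusted p was 0.219 and its adjusted p 0.618. With the replicate block in edgeR the unadjusted p was 0.0458 and the adjusted p 0.252. Atp5a1, the alpha subunit, averaged 320.4 CPM per kilobase and stood at 907.5, 757.7 and 922.4 CPM against 1227, 941.2 and 1270 CPM, without overlap. Atp5c1, the rotating gamma subunit (chromosome 2, 10056016 to 10080510), had the smallest p of the complex, at 236.6, 264.9 and 228.6 CPM against 378.1, 300.6 and 391.9 CPM. The log2 fold change of Atp5c1 was 0.55 ± 0.18, with an edgeR adjusted p of 0.190.

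Atp5f1, part of the peripheral stalk, was at 160.9, 158.1 and 176.5 CPM against 252.6, 197.9 and 261.6 CPM (0.52 ± 0.18 on the log2 scale, edgeR adjusted p = 0.216). In 7 of the 16 genes of complex V tested the groups were apart, beside 9.46% of all genes apart and higher. Among the 7 were Atp5a1, Atp5c1 and Atp5f1. Atp5l showed the widest spread of the complex, from 0.0394 to 5.56 CPM within the KLRG1-negative group. Among the assembly factors, Ndufaf2 had the largest log2 fold change, 0.66 ± 0.36, at 8.62, 11.3 and 13.6 CPM against 19.8, 13.2 and 20.1 CPM, with overlap.

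Several subunits are encoded by paralogs with different tissue use, and in both groups 1 paralog carried nearly all counts. Per kilobase, Cox4i1 had 98.9 to 100% of the Cox4i counts, Cox6a1 98.1 to 99.9% of Cox6a, Cox6b1 97.5 to 99.7% of Cox6b, Cox7a2 93.8 to 99.5% of Cox7a and Atp5g3 98.4 to 98.9% of Atp5g over the 6 libraries. The share of Atp5g2 is understated, since 36.7% of its 50-base stretches occur in other annotated genes. Cox7b and Cox8a were nearly alone: Cox7b2 and Cox8c, testis forms, had 0 counts and Cox8b, a heart and muscle form, 1 count. Cox6a2 and Cox7a1, the heart and muscle forms of their subunits, reached at most 1.93% and 6.24% per kilobase. Cox4i2, a lung form, had 22, 2 and 0 counts in KLRG1-negative and 7, 1 and 0 in KLRG1-positive libraries. Its counts were thus highest in the libraries numbered 1. Of the 4 epithelial markers, Sftpc was highest in these libraries too, at 366.4 and 329.8 CPM against at most 2.33 CPM elsewhere, but Epcam was lowest there in both groups, at 3.84 and 0.338 CPM. Scgb1a1 and Krt8 were highest in library 1 of the KLRG1-positive group and not of the KLRG1-negative group. The endothelial markers Pecam1, Cdh5 and Kdr were highest in library 1 of both groups as well. So were Lyz2 and the T cell markers Cd3d, Cd3e, Trac, Cd8a and Cd28. Adgre1, Csf1r, S100a8, S100a9, Cd3g and Cd4 were not highest there in both groups. Which cells held the Cox4i2 counts was not tested.

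Ndufa4l2, the hypoxia-inducible paralog of the complex IV subunit Ndufa4, was the member with the clearest one-sided counts. It had 8, 15 and 16 counts in KLRG1-negative and 1, 0 and 0 in KLRG1-positive libraries, so nearly all reads lay in the former. The ratio of KLRG1-negative to KLRG1-positive rates was 35.9 (95% exact conditional binomial interval 6.07 to 1453, counting error only). It did not pass the low-count filter, and without that filter its edgeR adjusted p was 0.316. The fibroblast marker sum, 3796 to 10658 CPM in the group that holds these counts, was 4.66 to 23.4 CPM in the other, and its part in them was not tested. Ndufa4 itself was at 122.3, 103.1 and 118.9 CPM against 156.9, 120.2 and 159.9 CPM, with overlap between groups but higher in each pair.

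The 2 genomes were set against each other within each library. Nuclear members took 0.982, 1.02 and 1.03% of assigned counts in KLRG1-negative and 1.35, 1.10 and 1.40% in KLRG1-positive libraries. Mitochondrially encoded members took 0.501, 0.727 and 0.694% against 0.512, 0.549 and 0.454%. The nuclear shares did not overlap between the groups and the mitochondrial ones did. The ratio of mitochondrial to nuclear member counts was 0.511, 0.711 and 0.675 in KLRG1-negative libraries and 0.378, 0.5004 and 0.325 in KLRG1-positive ones, so that all KLRG1-positive ratios were lower, though library 2 of that group came within 0.0101 of KLRG1-negative library 1. The mean ratio was 0.632 ± 0.107 against 0.401 ± 0.090 (SD, n = 3 each). This ratio describes only the mitochondrial genes whose reads could be assigned, and it was chosen after the values of the members had been seen. Alignments left uncounted for mapping to more than 1 place made up 26.3, 26.8 and 28.0% of all in KLRG1-negative libraries. In KLRG1-positive libraries they made up 31.4, 27.7 and 32.3%, with overlap between the groups. Their part in the shares and in the ratio was not tested. The mitochondrial ribosomal RNAs, which are not members, took 0.132, 0.300 and 0.179% against 0.203, 0.188 and 0.117% of counts and overlapped.

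**Figure D4:**
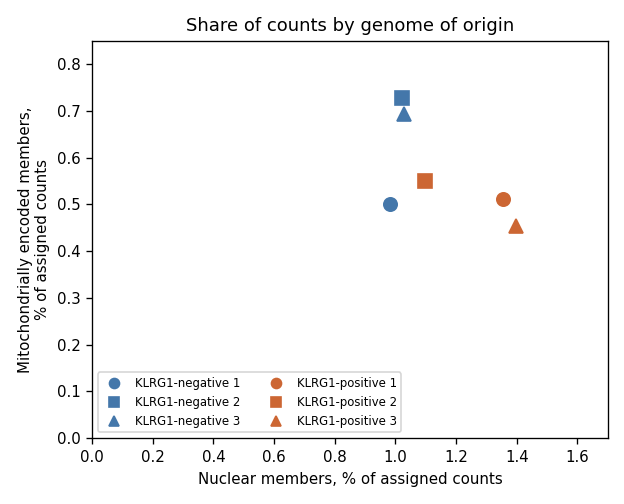
The share of assigned counts from nuclear members (horizontal axis) is plotted against that from mitochondrially encoded members (vertical axis), both in percent and from 0, with 1 point per library. KLRG1-positive libraries lie to the right of all KLRG1-negative ones on the horizontal axis (1.10 to 1.40% against 0.982 to 1.03%) and overlap them on the vertical axis.

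Related genes outside the membership gave a mixed picture. Of 17 genes of the citrate cycle and pyruvate dehydrogenase, which supply electrons to complexes I and II, 17 were positive. The median log2 fold change was 0.30, and among all genes tested 46.5% were positive. In edgeR 0 of the 17 were called, and 4 were higher with an unadjusted p under 0.05, beside 4.19% of all genes. Idh3a, the catalytic subunit of NAD-dependent isocitrate dehydrogenase, was at 216.7, 222.0 and 193.9 CPM against 393.5, 285.9 and 343.3 CPM, without overlap (log2 fold change 0.69 ± 0.18, edgeR adjusted p = 0.123). Sucla2, a subunit of succinyl-CoA synthetase, had a log2 fold change of 0.58 ± 0.19. The 34 further assembly factors and electron carriers had 23 of 33 tested positive and a median of 0.16, with Bcs1l at -0.63 ± 0.29 and Cox10 at 0.52 ± 0.26 having the smallest p. None of these 33 was called in edgeR, and 0 had an unadjusted p under 0.05.

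Of 13 genes listed for the copying and expression of mitochondrial DNA, 4 were positive, with a median log2 fold change of -0.16. Lrpprc, with the smallest p of this list, was at 126.3, 48.2 and 115.7 CPM against 27.7, 61.7 and 79.9 CPM, with overlap. The log2 fold change of Lrpprc was -0.78 ± 0.51 (edgeR adjusted p = 0.567). Tfam, which packages mitochondrial DNA and starts its transcription, was at 60.1, 31.9 and 76.5 CPM against 72.0, 58.9 and 63.3 CPM, and Polrmt, the mitochondrial RNA polymerase, at 98.4, 90.4 and 80.5 CPM against 74.7, 90.6 and 62.8 CPM, both with overlap. Among nuclear regulators of respiratory genes 3 of 8 tested were positive and the median was -0.04. Nrf1 was at 153.8, 100.1 and 92.1 CPM against 160.7, 162.0 and 142.7 CPM (0.43 ± 0.24, edgeR adjusted p = 0.486), and Ppargc1b at 22.0, 10.6 and 10.1 against 2.93, 9.19 and 7.19 CPM (-1.15 ± 0.58, edgeR adjusted p = 0.430). Ppargc1a, the coactivator known from brown fat and muscle, reached at most 0.619 CPM. In neither list was a gene called, and 0 had an unadjusted p under 0.05 in edgeR.

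Promoter windows of the nuclear members, 250 bases before to 50 after the RefSeq start (GRCm38.p6), were searched on both strands for 3 motifs named for factors that act on respiratory genes. Windows were matched for 76 of the 93, 81 windows in all. The NRF1 core GCATGCGC, whose first 6 letters read alike on both strands so that matches can overlap, was found in 12 of the 81 (14.8%), beside 2.71% of all 32851 windows of this length and 3.52% of those of protein-coding genes. The YY1 letters AAGATGGCG were found in 8 (9.88%, beside 1.40% and 1.83%). The ETS letters CCGGAAGT, bound by GABPA among others, were found in 5 (6.17%, beside 3.89% and 5.15%). At least 1 motif was found in 24 windows and none in 57. A match is a description of letters, and no match says only that these letters are not in the window.

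The windows of 3 genes described above or in complex III are printed to show such matches, from 250 bases before to 10 after the start, 5′ to 3′ on the gene's strand, with the matches in capitals. They were chosen because they hold a match: an NRF1 match in Sdhb (chr4:140961021-140961280, plus strand), an ETS and an NRF1 match in Uqcr11, a small subunit of complex III (chr10:80406812-80407071, minus strand), and a pair of overlapping NRF1 matches, 1 on each strand, in Cox6a1 (chr5:115348949-115349208, minus strand).
Sdhb: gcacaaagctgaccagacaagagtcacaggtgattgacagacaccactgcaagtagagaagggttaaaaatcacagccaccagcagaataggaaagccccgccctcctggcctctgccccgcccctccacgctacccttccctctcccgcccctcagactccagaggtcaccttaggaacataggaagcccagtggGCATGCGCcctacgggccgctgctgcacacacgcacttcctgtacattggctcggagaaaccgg
Uqcr11: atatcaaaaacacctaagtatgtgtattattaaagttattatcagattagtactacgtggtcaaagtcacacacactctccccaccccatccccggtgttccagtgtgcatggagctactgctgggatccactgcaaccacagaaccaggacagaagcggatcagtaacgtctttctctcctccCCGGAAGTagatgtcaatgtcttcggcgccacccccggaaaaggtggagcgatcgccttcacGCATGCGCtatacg
Cox6a1: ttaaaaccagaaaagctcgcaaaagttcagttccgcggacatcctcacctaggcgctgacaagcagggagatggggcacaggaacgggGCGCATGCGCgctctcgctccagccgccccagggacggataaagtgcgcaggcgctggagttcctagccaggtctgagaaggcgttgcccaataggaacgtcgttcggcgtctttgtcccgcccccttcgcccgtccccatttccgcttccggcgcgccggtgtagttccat
In CPM, Uqcr11 stood at 35.7, 47.0 and 51.4 in KLRG1-negative and at 55.2, 61.6 and 78.1 in KLRG1-positive libraries, without overlap, as did Sdhb and Cox6a1 with the values given above. These 3 do not stand for all 12 members with an NRF1 match. Of the 11 tested, 8 were positive and 3 negative, and in 7 the groups were apart. Among all 87 nuclear members tested, 76 were positive, and in 38 the groups were apart and higher, beside 9.46% of all genes. Ndufaf5, at -0.32, and Ndufaf4, at -0.24 on the log2 scale, hold a match as well. No test links these letters to the levels.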

How the data were processed

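RNA of 6 libraries was made into cDNA and amplified with a low-input SMARTer kit and Nextera XT, which does not mark strand, per the labels' protocols. The deposited table holds raw read counts that the authors obtained with featureCounts 1.5.2, per the file headers, on GRCm38 gene models, without strand and without multi-mapping reads. STAR 2.4.1d and bcl2fastq are listed in the submitters' processing notes. Gene classes came from GENCODE M21.

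The main test was edgeR 4.0.16 (R 4.3.3): quasi-likelihood F test, TMM, filterByExpr, group only, over 15197 genes, two-sided, Benjamini-Hochberg threshold 0.05. SEs derive from its F statistic. CPM used TMM-scaled library sizes. Alternatives included DESeq2 1.42.0. Scripts were tested on simulated data, with changes far larger than those of the members, set after smaller ones gave no calls; most of the smaller changes kept were still not called, so an absence of calls among the members is no sign of equal levels. Deviations of same-numbered libraries correlated across genes at 0.38, 0.34 and 0.19, so the numbers were read as pairing them, from the data and not the labels.

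Members and lists were chosen with earlier results of these data known. Named were the mitochondrial genes, per complex the 2 most abundant nuclear genes per kilobase and the 2 of smallest p, paralog sets, and 2 genes per related list; others were chosen after their values were seen, as were the motifs, the 10 CPM group of genes and the measure of shared 50-base stretches, taken against GENCODE M21 transcripts of genes elsewhere. Levels per kilobase are understated where gene models merge long exons, as for Ndufab1, Ndufb2, Atp5g1 and Atp5l. Depth sets a floor of 3 counts; intervals cover counting error only. Some values of single members are not reported here.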

Additional observations from a re-analysis of the deposited data

How the results depend on the processing

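The 0 members called higher became 4 with DESeq2's Wald test (346 of all genes) and 2 with DESeq2 and the replicate block (609 of all genes), a setting added after the data were seen; the cause was not tested. With the replicate block in edgeR, 0 members were called, the nuclear median log2 fold change was 0.36 and the mitochondrial median -0.34. Leaving out each library in turn gave 0 to 0 members called higher and 0 to 0 lower, which shows no stability, since those fits called 0 to 164 of all genes, and at most 4 in 4 of the 6. It gave nuclear medians of 0.32 to 0.46, mitochondrial medians of -0.52 to -0.12, ratios of the mitochondrial-to-nuclear ratio between groups of 0.556 to 0.695, and differences in mitochondrial share of -0.21 to -0.09 percentage points. Unadjusted, the number of members higher at p under 0.05 ran from 3 (without KLRG1-positive library 1) to 22 (without KLRG1-positive library 2) in those fits. Without KLRG1-negative library 1, 4 members were higher and 7 lower, against 14 and 1 with all libraries. Signs turned in some settings. The mitochondrial median of complex IV was 0.58 with no filter on low counts, and its only gene past the filter, mt-Co1, ran from -0.29 to 0.076 with libraries left out, above 0 without KLRG1-negative library 2 (0.060) or KLRG1-positive library 3. In the same fits mt-Nd6 ran from -0.55 to 0.0068 and Cox6b2 from -1.46 to 0.087, both above 0 without KLRG1-negative library 2. Cox7a1 was at 0.055 with no filter, 0.63 with the block and 0.67 with DESeq2 and the block, and ran from -0.48 to 1.58 with libraries left out, above 0 when library 2 of either group, or library 3 of the KLRG1-positive group, was left out. The cause of these turns was not tested. With DESeq2 size factors, library size only, or mitochondrial counts left out of the scaling, the nuclear median stayed at 0.32 to 0.35 and the mitochondrial median at -0.38 to -0.36. Low counts limit mt-Nd3, Cox6a2, Cox6b2, Cox7a1, Ndufa4l2 and Cox4i2, and no reading is possible for mt-Co2, mt-Co3, mt-Atp6, mt-Atp8 and mt-Nd4l.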
